A study of Mus musculus with 55 samples.

Results

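The genes described here are 45 immediate early and heat shock genes, the transcripts that cells make within a short time of a stimulus or a stress. They were chosen by name, 34 immediate early genes and 11 heat shock genes, and all 45 are among the 15728 gene symbols of the deposited tables. They were followed in 4 sorted populations of mouse bone marrow and at 4 stages or sites of breast cancer bone metastasis.

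Immediate early genes are transcribed from promoters already held ready, without new protein synthesis, when kinase cascades activate factors such as SRF, CREB and ELK. Their products are mostly transcription factors of the AP-1, EGR and KLF families, together with phosphatases and RNA-binding proteins that shut the same response down. Heat shock genes are switched on by HSF1 when proteins unfold, and encode chaperones. Both programmes are also known to be set off while a solid tissue is cut, digested and sorted into single cells, so a high level in sorted cells may have arisen in the animal or on the bench.

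The samples are 55 bulk MARS-seq libraries, a 3'-end RNA sequencing method with pooled barcoded samples, of sorted granulocytes, CD4+ T helper cells, CD8+ T cytotoxic cells and CD4+CD25+ cells labelled T reg. Each population was taken from normal marrow, from early metastatic marrow (titled Premet), and at the late stage from marrow away from the tumour (peripheral) and from the metastatic lesion itself (core). The design text places both late sites in the same mouse. In this order of stages and sites there were 4, 4, 4 and 3 libraries of granulocytes and of CD4 cells, 4, 4, 2 and 2 of CD8 cells, and 4, 3, 3 and 3 of Treg. No group carried a treatment or a gene change according to the labels, which give no strain or age. The core granulocytes have the tissue label of bone marrow and were placed in the core by their titles. Nothing in the labels says whether a library came from 1 mouse or from a pool, so the p-values measure the spread between these libraries.

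Libraries held 43224 to 1633022 recovered reads, and 1 read was worth 0.612 to 2.8 CPM (reads of a gene scaled to the same total in every library) in granulocytes and up to 23.1 CPM in CD8 cells. Levels are compared between libraries for 1 gene at a time, not between genes. Of the marker genes, S100A8 was at 48515 CPM or more in every granulocyte library, CD4 at 209 to 645 CPM in CD4 cells and CD8A at 82.4 to 437 CPM in CD8 cells and at most 56.1 CPM elsewhere. Markers of other populations were present too, since CD8 cells held up to 68633 CPM of S100A8 and up to 295 CPM of CD4. The Treg libraries held FOXP3 at 0 to 65.5 CPM, against 0 to 94.8 CPM in the CD4 cells, so FOXP3 did not set them apart. Macrophage C1QA was at 232 to 10110 CPM in Treg libraries, 178 to 2316 CPM in CD4 cells and 63.9 to 1990 CPM in CD8 cells. Transcripts of lung, the summed level of SCGB1A1, SFTPC, MFAP4, SFTPD, INMT and MGP, were at 1135 to 8679 CPM in 24 libraries and at 20.3 to 301 CPM in the other 31. These 24 libraries lay in every group but 2, and their bearing on the counts is given with the results. In bulk libraries, more cells of a kind and more RNA per cell cannot be told apart.

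The promoters of 6 members are shown, each with an element by which the families are known. Each window runs from 250 bases before to 50 bases after the RefSeq start (GRCm38.p6), is written on the gene's strand and has the matched motif in capitals. HSPA1A (chr17:34972107-34972406, minus strand) and HSPA1B (chr17:34959189-34959488, minus strand) are shown with the heat shock element GAANNTTC, which begins 104 bases before the start in both. DUSP1 (chr17:26508423-26508722, minus strand), BTG2 (chr1:134079106-134079405, minus strand) and PPP1R15A (chr7:45526219-45526518, minus strand) are shown with the cyclic AMP response element TGACGTCA, and ZFP36 (chr7:28379179-28379478, minus strand) with the CArG box that SRF binds.
HSPA1A: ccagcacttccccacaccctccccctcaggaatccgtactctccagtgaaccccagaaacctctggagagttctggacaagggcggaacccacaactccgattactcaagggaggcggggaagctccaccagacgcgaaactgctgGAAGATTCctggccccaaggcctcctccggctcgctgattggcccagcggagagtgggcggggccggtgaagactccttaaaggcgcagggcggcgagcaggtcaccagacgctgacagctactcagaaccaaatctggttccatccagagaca
HSPA1B: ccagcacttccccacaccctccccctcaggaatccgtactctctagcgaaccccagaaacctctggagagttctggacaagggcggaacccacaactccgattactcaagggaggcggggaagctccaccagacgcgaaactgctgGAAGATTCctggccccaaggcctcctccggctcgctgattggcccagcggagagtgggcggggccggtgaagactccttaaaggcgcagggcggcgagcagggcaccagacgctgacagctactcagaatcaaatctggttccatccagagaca
DUSP1: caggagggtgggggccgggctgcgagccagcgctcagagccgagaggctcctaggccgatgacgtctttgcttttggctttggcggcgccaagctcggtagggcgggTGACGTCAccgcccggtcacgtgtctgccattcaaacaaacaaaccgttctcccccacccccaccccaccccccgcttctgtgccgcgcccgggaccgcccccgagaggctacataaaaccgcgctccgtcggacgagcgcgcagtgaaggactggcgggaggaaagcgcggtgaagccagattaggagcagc
BTG2: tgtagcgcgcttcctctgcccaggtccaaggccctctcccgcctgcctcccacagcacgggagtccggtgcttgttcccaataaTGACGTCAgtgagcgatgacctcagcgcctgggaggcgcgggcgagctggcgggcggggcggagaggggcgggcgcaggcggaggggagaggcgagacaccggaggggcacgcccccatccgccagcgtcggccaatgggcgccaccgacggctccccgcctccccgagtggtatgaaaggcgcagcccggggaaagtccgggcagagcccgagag
PPP1R15A: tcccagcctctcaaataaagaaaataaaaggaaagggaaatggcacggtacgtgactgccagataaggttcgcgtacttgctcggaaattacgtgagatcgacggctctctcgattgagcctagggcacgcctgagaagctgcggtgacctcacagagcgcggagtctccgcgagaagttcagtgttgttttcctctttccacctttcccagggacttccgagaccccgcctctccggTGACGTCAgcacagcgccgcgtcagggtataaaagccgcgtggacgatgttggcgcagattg
ZFP36: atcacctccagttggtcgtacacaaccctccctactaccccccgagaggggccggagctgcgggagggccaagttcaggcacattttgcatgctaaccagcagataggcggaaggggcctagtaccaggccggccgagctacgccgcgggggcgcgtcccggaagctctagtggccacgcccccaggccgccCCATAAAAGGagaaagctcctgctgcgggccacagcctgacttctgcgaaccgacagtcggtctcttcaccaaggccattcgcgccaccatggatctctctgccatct

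The HSPA1A and HSPA1B windows were identical at 296 of 300 bases, and the genes are near-identical copies, so the split of reads between them is uncertain and their sum is given where it matters. RefSeq windows were found for 37 of the 45 members and searched on both strands. GAANNTTC was present for 11 of the 37 (BAG3, DNAJA1, FOSL2, HSPA1A, HSPA1B, HSPD1, HSPE1, HSPH1, IER5L, JUN and SGK1) and in 9.04% of 27025 genes. TGACGTCA was present for 3 members and 2.03% of genes, the CArG box for 3 members (DUSP5, EGR2 and ZFP36) and 1.81% of genes, the AP-1 site TGAGTCA for BAG3 and 5.95% of genes, and the EGR site GCGTGGGCG for DNAJA1 and 0.707% of genes. These matches describe the sequence only.

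The summed level of the immediate early members had its highest group mean in the metastatic core in all 4 populations. The 34 members summed to 13137 to 15811 CPM in core granulocytes, 10398 to 14952 CPM in core CD4 cells, 10133 and 11385 CPM in core CD8 cells and 9588 to 17929 CPM in core Treg libraries. Outside the core the sums were 4583 to 9193 CPM in granulocytes, 2291 to 6747 CPM in CD4 cells, 2116 to 5578 CPM in CD8 cells and 1988 to 9729 CPM in Treg libraries. Core libraries without lung transcripts, at 15811 CPM in granulocytes, 10398 CPM in CD4 cells and 9588 and 11268 CPM in Treg libraries, stood above every non-core library of their population without them. The ranges overlapped in the Treg libraries alone, where normal replicate 1, with lung transcripts, held 9729 CPM against a lowest core value of 9588 CPM.

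Sums hide the members, so each gene was tested between core and peripheral marrow, with limma on log2 of the deposited value plus 4 and Benjamini-Hochberg adjustment over all genes tested, at an adjusted p under 0.05. The filter on low values was passed by 31 members in granulocytes, 35 in CD4 cells, 37 in CD8 cells and 34 in Treg libraries. Some members called higher in the core below passed that filter through their core libraries alone. These were DUSP2 in granulocytes, FOSL2, GADD45A and PLK3 in CD4 cells and DUSP4 in CD8 cells. Their tests were open only because their core values were high. Higher in the core were 8 members in granulocytes, where 1.55% of all genes were called higher, 12 in CD4 cells (1.59%), 9 in CD8 cells (1.14%) and 6 in Treg libraries (1.08%), and no member was called lower. The median log2 difference of the members tested was 0.87 in granulocytes (all genes -0.06), 1.61 in CD4 cells (0.01), 1.94 in CD8 cells (0.01) and 1.65 in Treg libraries (0.01). In all, 18 members were called in at least 1 population, of which JUNB, DUSP1, BTG2, PPP1R15A, GADD45B and PLK3 were called in 3, 5 others in 2 and none in all 4. Of the 30 members tested in every population, 27 had a positive difference in all 4, the exceptions being KLF6 and SGK1 in granulocytes and HSP90AB1 in CD4 cells and Treg libraries.

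Separation of the libraries gave a second count. Every core library exceeded every peripheral library for 10 of 31 members in granulocytes, where 2.34% of all genes did so. The same held for 23 of 35 members in CD4 cells (5.8% of genes), 31 of 37 in CD8 cells (21.8%, with 2 libraries a site) and 19 of 34 in Treg libraries (8.99%).

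Other transcripts moved between the sites too. Core granulocytes held 541 to 750 CPM of the 9 macrophage markers in the files, all 9 with reads, against 238 to 384 CPM in peripheral granulocytes, and C1QA, C1QB and C1QC were called higher. The 9 T cell markers summed to 3398 to 4097 CPM in core and 1276 to 2559 CPM in peripheral CD4 cells, and to 1946 to 4329 CPM and 314 to 2066 CPM in the Treg libraries. The 9 neutrophil markers were lower in core CD8 cells (506 and 4904 against 8657 and 13270 CPM) and in core Treg libraries (10665 to 21293 against 22434 to 81827 CPM), where CXCR2 was at 0. The 6 tumour and mammary epithelial markers summed to 17.1 to 222 CPM over all core libraries and 0 to 36.8 CPM over all peripheral ones, with KRT5 at 0 at both sites. Their part in the members' differences was not tested.

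The lung transcripts were unevenly spread over the sites: core granulocyte replicates 2 and 3, core CD4 replicates 1 and 2, both core CD8 libraries and core Treg replicate 1 held them, as did 1 peripheral library each of granulocytes, CD4 cells and Treg but neither peripheral CD8 library. Without the libraries that held them, 15 members were higher and 2 lower in core granulocytes (4.04% of genes higher), where 1 core library is assumed to vary like the rest, and 10 were higher in the Treg libraries (1.82%), from 2 libraries at each site. The CD4 comparison kept 1 core library and called 0 members with limma (16 at an unadjusted p under 0.05; 0 of all genes were called). Of the 12 members called with all libraries, the log2 differences there were 2.29 for KLF6, 2.26 for JUNB, 2.02 for PPP1R15A, 1.90 for PLK3 and 1.81 for FOSL2, and lowest for JUND (0.78, from 1.35) and DNAJB1 (0.41, from 1.48). In CD8 cells core and lung transcripts cannot be told apart at the late stage. With the presence of lung transcripts as a term, the counts were 11 in granulocytes, 13 in CD4 cells, 2 in CD8 cells (DUSP4 and IER5L) and 17 in Treg libraries. That term rests on normal marrow alone in CD8 cells, the only group there with libraries of both kinds. In CD8 cells the core minus peripheral differences given below then became 1.27 for ATF3, 0.92 for FOS, 1.40 for DUSP1, 1.96 for HSPA1B, 1.09 for BTG2, 1.11 for GADD45B and 1.88 for JUNB, and none of these 7 was called.

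Single libraries also bore on the counts. Without core CD4 replicate 2 the CD4 count fell from 12 to 1, and without core CD8 replicate 1 the CD8 count fell from 9 to 0. With libraries of both sites paired as animals, the CD8 count was 25 and not 9, from 2 pairs, and the other counts were 9 in granulocytes, 15 in CD4 cells and 9 in Treg libraries. Shares of all genes called are not given for the paired fit, the fits without a library or the lung term. Their counts are therefore not read as results about the members. The paired fit added EGR1 in granulocytes. It added GADD45G, IER3, ZFP36 and ZFP36L1 in CD4 cells and lost DNAJB1, and added DUSP2, GADD45B, JUNB and ZFP36 in Treg libraries and lost KLF6. In CD8 cells it added PPP1R15A, PLK3, DUSP2, EGR1, IER3, GADD45G, ZFP36, ZFP36L1, JUN, JUND, FOSB, FOSL2, HSPA1A, DNAJB1, BAG3 and HSPE1. Pairing cannot part core from lung transcripts in CD8 cells, as both core libraries and neither peripheral one held them. Calls named below are those of the unpaired fit unless the paired one is named.

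**Figure D1:**
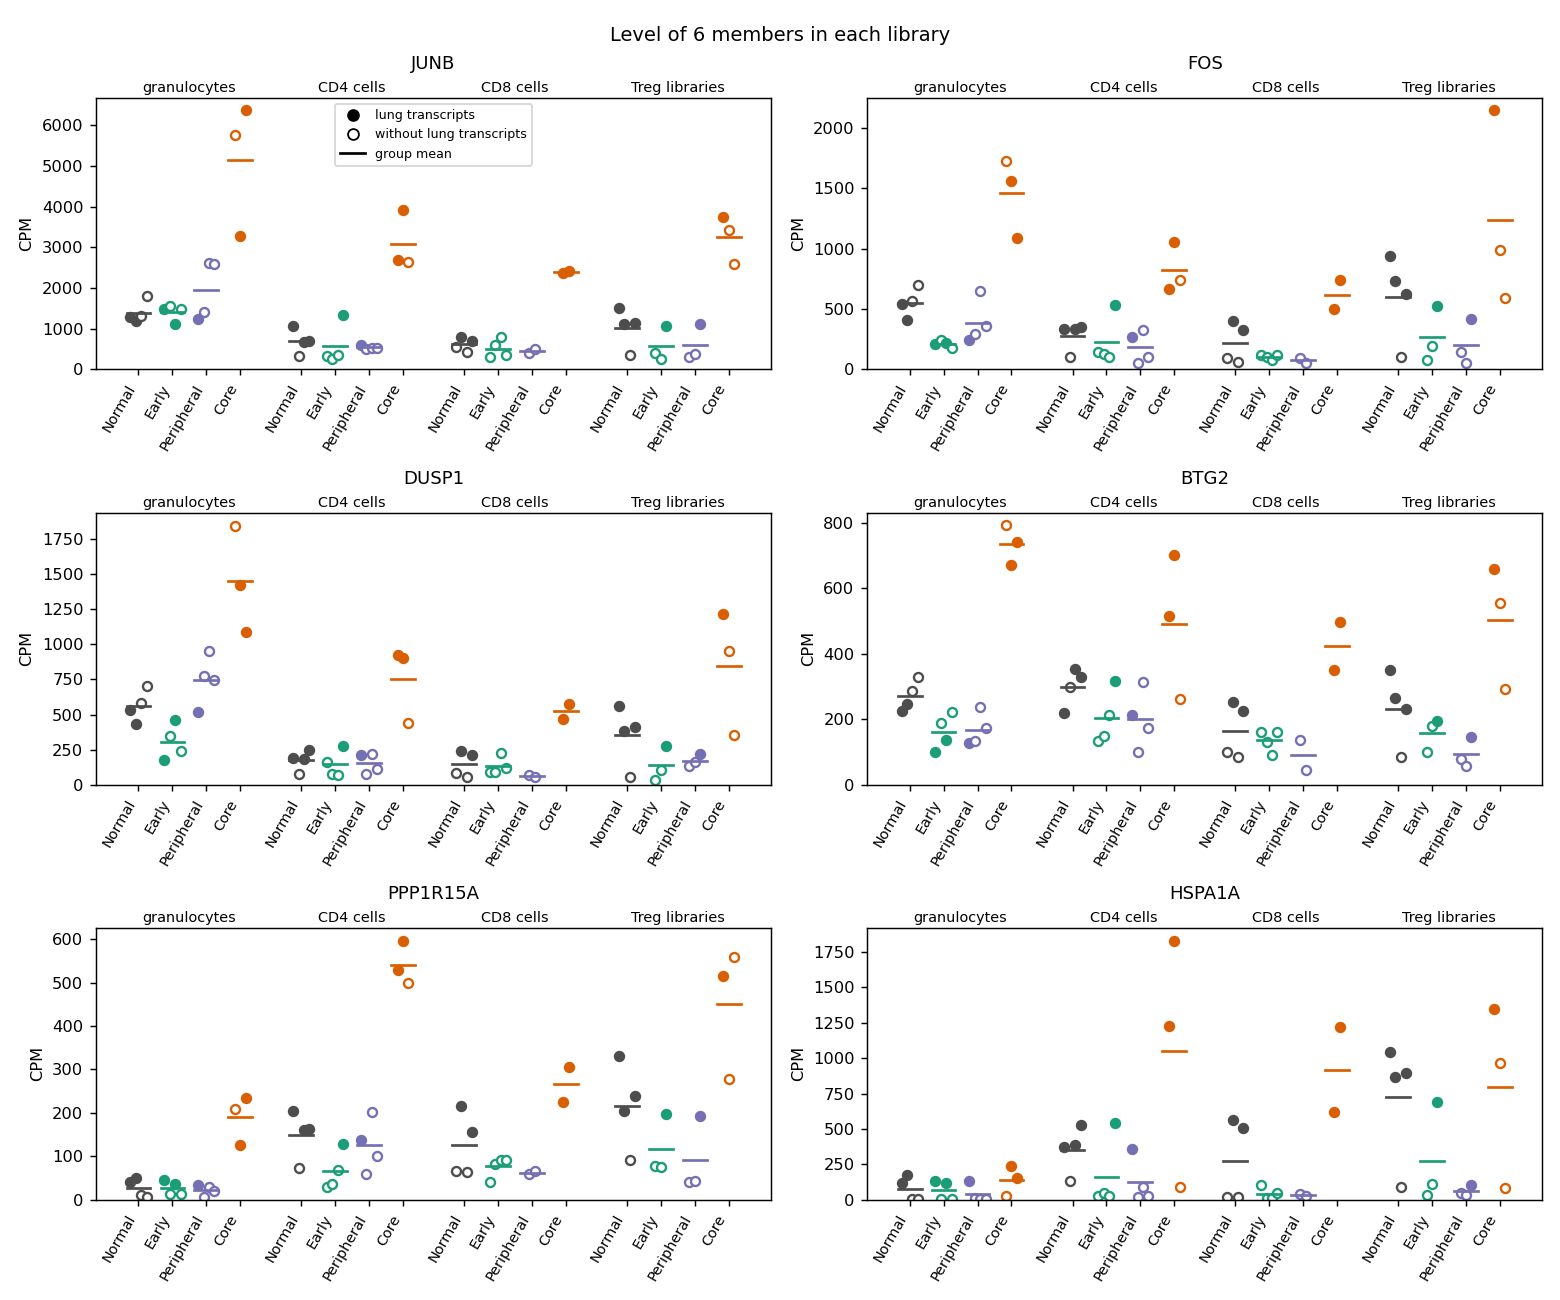
CPM of JUNB, FOS, DUSP1, BTG2, PPP1R15A and HSPA1A in each of the 55 libraries, by population and by stage or site, with filled points for libraries with lung transcripts and open points for those without. JUNB reached 2370 to 6363 CPM in the core libraries; HSPA1A was at 105 CPM or more in every library with lung transcripts.

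The AP-1 subunits are the proteins that pair to bind TGAGTCA, and JUNB, which restrains JUN in many cells, was the most uniform of them. JUNB stood at 5758, 3286 and 6363 CPM in core granulocytes and at 1227, 1410, 2612 and 2583 CPM in peripheral ones, a log2 difference of 1.69 (SE 0.35, adjusted p = 0.0104). In CD4 cells it stood at 2698, 3910 and 2649 CPM in the core and at 590, 508, 523 and 538 CPM in peripheral marrow, a log2 difference of 2.55 (SE 0.45, adjusted p = 0.00739). In CD8 cells it stood at 2370 and 2423 CPM against 403 and 507 CPM (log2 difference 2.49, SE 0.44, adjusted p = 0.00684). JUNB did not overlap between the sites in any of the 4 populations. In the Treg libraries 3 core values of 3754, 3419 and 2584 CPM stood above 313, 371 and 1118 CPM, yet the adjusted p was 0.0923. There the highest peripheral value was replicate 3, the library with lung transcripts, and without the lung libraries JUNB was called (log2 difference 2.93, adjusted p = 0.00029).

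FOS, the partner of the JUN proteins, whose transcript is short-lived, was called in granulocytes and CD8 cells. Core granulocytes held 1723, 1564 and 1084 CPM and peripheral granulocytes 245, 296, 648 and 361 CPM, a log2 difference of 2.23 (SE 0.29, adjusted p = 9.86e-05). That call held without each of the 15 granulocyte libraries in turn. Core CD8 cells held 498 and 737 CPM of FOS against 97.2 and 55.1 CPM (log2 difference 2.96, SE 0.61, adjusted p = 0.0269). Core CD4 cells at 664, 1058 and 742 CPM did not overlap peripheral ones at 271, 51.3, 328 and 101 CPM, with an adjusted p of 0.0909. Treg libraries held FOS at 2144, 988 and 590 CPM against 143, 50 and 418 CPM (adjusted p = 0.228), and without the lung libraries its log2 difference was 2.83 (adjusted p = 0.00687).

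The remaining AP-1 members differed in how widely they were called. JUND, the subunit that resting cells also make, was at 834, 979 and 586 CPM in core CD4 cells and at 293, 250, 470 and 290 CPM in peripheral ones (log2 difference 1.35, SE 0.29, adjusted p = 0.0128). FOSL2, a FOS relative, was at 67.2, 108 and 74.8 CPM in core CD4 cells and 6.75 to 12.6 CPM in the 4 peripheral libraries (log2 difference 2.07, SE 0.43, adjusted p = 0.00987). ATF3, a stress-induced factor that pairs with JUN, was called in CD8 cells, at 179 and 320 CPM against 14.6 and 11.5 CPM (log2 difference 3.39, SE 0.74, adjusted p = 0.0314). Sites did not overlap in these 3 cases. FOSB, which acts like FOS, and JUN were called in no population, with log2 differences of 1.82 to 3.60 for FOSB and 0.51 to 2.03 for JUN. FOSB ranged from 0.827 to 67.8 CPM in peripheral granulocytes, the highest being the library with lung transcripts.

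Among the EGR, KLF and IER regulators the calls fell mostly in the T cell and Treg libraries. IER2, a nuclear protein of the first wave, was at 545, 729 and 711 CPM in core CD4 cells and 204, 301, 157 and 231 CPM in peripheral ones (log2 difference 1.61, SE 0.31, adjusted p = 0.00691). Treg libraries held IER2 at 757, 799 and 661 CPM against 110, 186 and 298 CPM (log2 difference 1.86, SE 0.31, adjusted p = 0.00402). KLF6, a zinc finger factor of injury responses, was at 222, 189 and 232 CPM in core Treg libraries and 18.4, 71.4 and 56.3 CPM in peripheral ones (log2 difference 1.91, SE 0.41, adjusted p = 0.0215). Neither gene overlapped between the sites there, but the Treg KLF6 call was not made with the paired fit. KLF6 was also called in CD4 cells (194 ± 97.2 CPM, SD, n = 3, against 51.5 ± 22.2 CPM, n = 4; log2 difference 1.69, adjusted p = 0.016). In granulocytes KLF6 was at 48.5, 284 and 174 CPM in the core, around the peripheral 149 to 221 CPM, with a log2 difference of -0.09. The core value of 48.5 CPM is the library without lung transcripts.

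IER5L, a relative of IER5 of less known function, gave the largest fitted difference in CD8 cells among the called immediate early members. It was at 708 and 423 CPM in core CD8 cells and at 38.9 and 20.7 CPM in peripheral ones (log2 difference 3.86, SE 0.51, adjusted p = 0.000541). In CD4 cells IER5L was at 90.9, 122 and 93.5 CPM against 16.8 to 67.2 CPM (log2 difference 1.49, SE 0.39, adjusted p = 0.0482). The sites did not overlap in either population. EGR1, a zinc finger activator that answers growth and antigen signals, was called in no population between the sites, with log2 differences from 1.46 to 4.00. It was at 400 and 576 CPM in core CD8 cells against 19.4 and 20.7 CPM (adjusted p = 0.069), and at 228, 221 and 655 CPM in core granulocytes against 24.7 to 151 CPM (adjusted p = 0.161). With the paired fit EGR1 was called in granulocytes and CD8 cells. Both core CD8 libraries and neither peripheral one held lung transcripts. With the lung term the CD8 difference of EGR1 was 1.05, with no call. Normal CD8 libraries held EGR1 at 357 and 353 CPM with lung transcripts and at 27.5 and 41.8 CPM without. KLF4, a factor of monocytes and barrier epithelia, had log2 differences of 1.01 to 1.28 in the 3 populations where it was tested and no call.

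The MAP kinase phosphatases remove the phosphates that switch on the kinases upstream of these genes. DUSP1, which acts on p38 and JNK, was at 1848, 1423 and 1087 CPM in core granulocytes and 518, 773, 952 and 745 CPM in peripheral ones (log2 difference 1.23, SE 0.29, adjusted p = 0.0292). In CD4 cells DUSP1 was at 924, 905 and 436 CPM against 209, 73, 216 and 113 CPM (log2 difference 2.32, SE 0.46, adjusted p = 0.012). In CD8 cells it was at 466 and 578 CPM against 68 and 55.1 CPM (log2 difference 2.96, SE 0.56, adjusted p = 0.0134). Core and peripheral libraries did not overlap in any of these, nor in the Treg libraries, where DUSP1 was at 1217, 955 and 357 CPM against 129 to 217 CPM (adjusted p = 0.303). DUSP2, a nuclear phosphatase of leukocytes, had the smallest adjusted p of any member between the sites. In granulocytes it had passed the filter through its core libraries alone. It rose in core granulocytes from 4.3, 8.24, 1.84 and 4.13 CPM to 68.5, 71.5 and 50.4 CPM (log2 difference 2.61, SE 0.27, adjusted p = 3.84e-06), and that call held without each library in turn. DUSP2 is abundant in T cells, where its values in the core and peripheral libraries also did not overlap and no call was made; adjusted p was 0.171 in CD4 cells, 0.0564 in CD8 cells and 0.092 in Treg libraries.

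DUSP4, a nuclear phosphatase of activated T cells, had 0 reads in the 2 peripheral CD8 libraries and 66 and 65.3 CPM in the 2 core libraries (adjusted p = 0.0217). Against 3 reads over the peripheral group, 4.68 CPM, its level was at least 14-fold higher in the core. DUSP4 passed the filter in no other population, and DESeq2 did not call it. DUSP6, the cytoplasmic ERK phosphatase, was tested in the Treg libraries alone, at 11.1 to 51.5 CPM in the core and 13.8 to 40.2 CPM in peripheral marrow (log2 difference 0.12, SE 0.50).

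The RNA decay and antiproliferative members include BTG2, which recruits the deadenylase that shortens poly(A) tails and slows division. BTG2 was at 793, 670 and 742 CPM in core granulocytes and 127, 133, 237 and 172 CPM in peripheral ones (log2 difference 2.39, SE 0.26, adjusted p = 7.74e-06). In the Treg libraries it was at 658, 555 and 292 CPM against 78.2, 57.1 and 145 CPM (log2 difference 2.21, SE 0.45, adjusted p = 0.0209). In CD8 cells it was at 349 and 496 CPM against 136 and 43.6 CPM (log2 difference 2.35, SE 0.49, adjusted p = 0.0267). The sites did not overlap in these 3 populations. They overlapped in CD4 cells, at 262 to 701 CPM and 98.1 to 314 CPM (adjusted p = 0.0567). The granulocyte call held without each library in turn.

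ZFP36, the tristetraprolin that marks AU-rich messages such as that of TNF for decay, was called between the sites in no population without pairing, and in CD4 cells, CD8 cells and Treg libraries with it. Its core values stood above the peripheral ones in CD4 cells (569, 799 and 742 against 95.8 to 306 CPM, adjusted p = 0.0904), in CD8 cells (394 and 628 against 180 and 87.3 CPM, adjusted p = 0.177) and in Treg libraries (1395, 500 and 744 against 129 to 314 CPM, adjusted p = 0.208). In granulocytes they overlapped, at 812 to 1202 and 502 to 1013 CPM. Its relative ZFP36L1 had log2 differences of 0.42 to 1.43, and ZFP36L2 of -0.22 to 0.45. Neither was called but for ZFP36L1 in CD4 and CD8 cells in the paired fit. With the lung term the CD8 differences of ZFP36 and ZFP36L1 were 0.07 and 0.38, with no call.

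**Figure D2:**
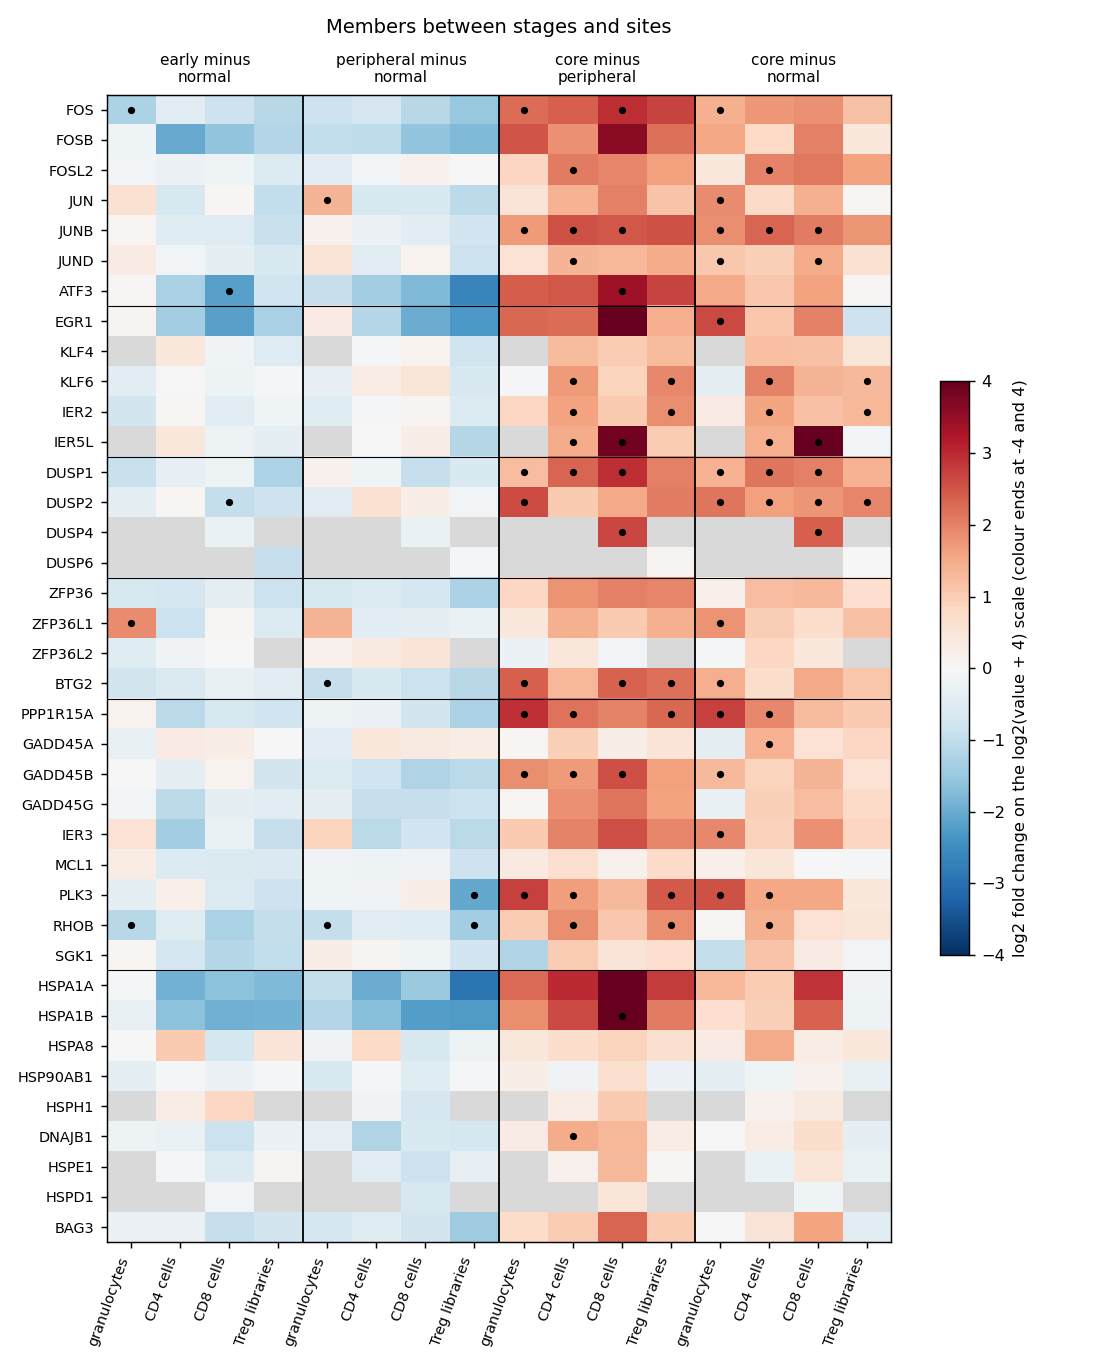
Log2 differences of the 38 members that passed the filter in at least 1 population, in the 16 comparisons of stages or sites within a population. Colour runs from -4 (blue) to 4 (red), dots mark adjusted p under 0.05 and grey cells were not tested; calls cluster in the columns of the core.

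Of the stress, survival and signalling members, PPP1R15A (GADD34), which directs the phosphatase that restarts translation after stress, was called in 3 populations. It was at 210, 125 and 235 CPM in core granulocytes and 34.4, 7.21, 28.3 and 19.8 CPM in peripheral ones (log2 difference 2.93, SE 0.55, adjusted p = 0.00788). In CD4 cells it was at 529, 596 and 499 CPM against 138, 59.3, 202 and 101 CPM (log2 difference 2.18, SE 0.39, adjusted p = 0.00482). In the Treg libraries it was at 515, 278 and 560 CPM against 41.4, 42.8 and 193 CPM (log2 difference 2.30, SE 0.51, adjusted p = 0.0407). No core value fell within the peripheral range in any population, CD8 cells included (226 and 306 against 58.3 and 66.6 CPM, adjusted p = 0.069).

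PLK3, a stress-responsive polo-like kinase, was at 339, 151 and 358 CPM in core granulocytes and 45.2, 9.27, 85.4 and 49.6 CPM in peripheral ones (log2 difference 2.73, SE 0.50, adjusted p = 0.00553). Core Treg libraries held PLK3 at 95.1, 99.9 and 95.3 CPM against 4.6, 0 and 16.1 CPM (log2 difference 2.45, SE 0.37, adjusted p = 0.00221). In CD4 cells it was at 47.4, 99.7 and 131 CPM against 6.75 to 37.8 CPM (log2 difference 1.68, SE 0.37, adjusted p = 0.0152). These 3 populations showed no overlap, and PLK3 levels did not follow the lung transcripts (log2 difference with them -0.07, SE 0.18, adjusted p = 0.935 over the 55 libraries).

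GADD45B, which activates the p38 and JNK pathways in stressed and antigen-driven cells, was at 620, 575 and 339 CPM in core granulocytes and 208, 118, 138 and 179 CPM in peripheral ones (log2 difference 1.87, SE 0.26, adjusted p = 0.000154). In CD4 cells it was at 695, 856 and 779 CPM against 394, 113, 314 and 252 CPM (log2 difference 1.69, SE 0.34, adjusted p = 0.00922), and in CD8 cells at 526 and 677 CPM against 126 and 75.8 CPM (log2 difference 2.57, SE 0.50, adjusted p = 0.0157). The sites were apart in all 3. RHOB, an endosomal GTPase, was at 301, 266 and 173 CPM in core Treg libraries and 101, 42.8 and 32.2 CPM in peripheral ones (log2 difference 1.86, SE 0.38, adjusted p = 0.0175), and at 162, 290 and 150 CPM against 25.2 to 71.5 CPM in CD4 cells (log2 difference 1.86, SE 0.39, adjusted p = 0.0116), again without overlap.

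The other members of this group were not called between the sites. GADD45A, the p53 target of the family, had log2 differences of 0.07 to 0.96, GADD45G of 0.07 to 2.14 and IER3, an NF-kappaB target that modulates survival, of 1.05 to 2.57. MCL1, the short-lived BCL2 relative on which neutrophils and T cells depend, had log2 differences of 0.17 to 0.76, the largest belonging to the Treg libraries (281, 167 and 155 against 57.1 to 153 CPM, adjusted p = 0.393). SGK1, a kinase induced by serum and glucocorticoids, had the lowest value of any member, -1.21 in granulocytes (44.2, 114 and 22.4 CPM against 122, 169, 163 and 155 CPM, SE 0.32, adjusted p = 0.0707). Core and peripheral granulocytes did not overlap for SGK1. Leaving out the lung libraries kept a single core granulocyte library, and the log2 differences of SGK1 and KLF6 were then -1.30 and -1.33. That library held KLF6 at 48.5 CPM, while the other core libraries held 284 and 174 CPM and peripheral ones 149 to 221 CPM.

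Heat shock members were divided between inducible and constitutive genes. Over the tested ones the median log2 difference was 0.59 against 1.02 for the immediate early members in granulocytes (6 and 25 tested), 0.87 against 1.69 in CD4 cells (8 and 27), 1.31 against 1.99 in CD8 cells (9 and 28) and 0.65 against 1.86 in Treg libraries (7 and 27); the difference between the groups of genes was not tested. The 5 inducible members summed to 1390 and 2751 CPM in core CD8 cells against 108 and 175 CPM in peripheral ones. Their sums ran from 231 to 4076 CPM in core CD4 cells against 114 to 770 CPM, from 256 to 2517 CPM in core Treg libraries against 150 to 330 CPM, and from 95.6 to 606 CPM in core granulocytes against 56.5 to 333 CPM. On average the inducible sum was at 2318 against 324 CPM in CD4 cells, 2070 against 141 in CD8 cells, 1483 against 217 in Treg libraries and 342 against 138 in granulocytes, with overlap everywhere but in CD8 cells. Core CD4 cells held 2647 and 4076 CPM with lung transcripts and 231 CPM without. Peripheral CD4 cells held 770 CPM with them and 114 to 224 CPM without. Both core CD8 libraries and neither peripheral one held lung transcripts, and normal CD8 cells were at 1138 and 1306 CPM with them and 118 and 193 CPM without. Core Treg replicate 2, without them, departed from this at 1676 CPM. DNAJB1, the HSP40 co-chaperone that loads clients on HSP70, was called in CD4 cells, at 273, 270 and 74.8 CPM against 89, 44.5, 29.9 and 92.5 CPM (log2 difference 1.48, SE 0.39, adjusted p = 0.0449). The sites overlapped. The call was lost in 13 of the 15 fits that left out a library, and in the paired fit. HSPA1B, an inducible HSP70, was called in CD8 cells, at 570 and 1164 CPM against 29.1 and 20.7 CPM (log2 difference 4.57, SE 0.85, adjusted p = 0.0219). There its copy HSPA1A was at 619 and 1219 CPM against 38.9 and 27.6 CPM (log2 difference 4.38, SE 1.57, adjusted p = 0.267).

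HSPA1A followed the libraries with lung transcripts. Core CD4 cells held 1229 and 1828 CPM in the replicates with lung transcripts and 87.3 CPM in the one without, and peripheral CD4 cells 359 CPM in the one with them and 16, 89.6 and 25.2 CPM in the others. Core granulocytes held 241 and 154 CPM with lung transcripts and 28.5 CPM without, and peripheral granulocytes 132 CPM with and 4.92 to 10.3 CPM without. The Treg libraries departed from this, since core replicate 2, without lung transcripts, held 966 CPM beside 1348 and 83.4 CPM in the other core libraries and 35.7 to 105 CPM in the peripheral ones. BAG3, the co-chaperone that hands HSP70 clients to autophagy, had log2 differences between the sites of 0.73 to 2.32 and no call.

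The constitutive chaperones stayed nearer to level. HSPA8, the HSP70 of unstressed cells, was at 572 to 860 CPM in core and 306 to 599 CPM in peripheral CD4 cells, with log2 differences of 0.46 to 0.90 over the 4 populations. HSP90AB1, the constitutive HSP90, was at 751 to 1066 CPM against 806 to 1520 CPM in CD4 cells, with log2 differences of -0.23 to 0.65. HSPE1, the mitochondrial HSP10, had log2 differences of 0.05 to 1.31 in 3 populations, and HSPD1, the mitochondrial HSP60, of 0.47 in CD8 cells. HSPH1, the HSP110 exchange factor counted above with the inducible members, had log2 differences of 0.31 and 1.05 in CD4 and CD8 cells. None of these was called.

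Core libraries were also compared with normal marrow. Core granulocytes had 13 members called higher (6.07% of all genes were), core CD4 cells 11 (2.01%), core CD8 cells 6 (0.92%) and core Treg libraries 3 (1.77%), with no member lower. Median log2 differences were 1.09 in granulocytes (all genes -0.07), 1.08 in CD4 cells (0.07), 1.37 in CD8 cells (0.03) and 0.48 in Treg libraries (-0.11). Both comparisons share the core libraries. Beyond the 8 members called against peripheral marrow, core granulocytes exceeded normal ones in EGR1, IER3, JUN, JUND and ZFP36L1. IER3 was at 416 ± 70.9 CPM (SD, n = 3) against 105 ± 16.6 CPM (n = 4; log2 difference 1.93, SE 0.31, adjusted p = 0.000476), and JUN at 106 ± 23.8 against 24.2 ± 9.42 CPM (log2 difference 1.88, SE 0.44, adjusted p = 0.00981).

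DUSP2 was called against normal marrow in all 4 populations, as no other member was. In granulocytes it had passed the filter through its core libraries alone, so that call adds no separate support. The Treg call was lost in 7 of 13 fits that left out a library, with log2 of the value plus 1 and without the lung libraries. The CD4 call was lost without core replicate 1 or 2 and without the lung libraries, and the CD8 call without core replicate 1 and with the lung covariate. DUSP2 was at 63.5 ± 11.4 CPM in core granulocytes (n = 3) against 8.27 ± 2.02 CPM (n = 4; adjusted p = 4.2e-05). It was at 624 ± 173 CPM (n = 3) against 217 ± 109 CPM (n = 4) in CD4 cells (adjusted p = 0.0115), 914 ± 280 CPM (n = 2) against 272 ± 52 CPM (n = 4) in CD8 cells (adjusted p = 0.00866), and 446 ± 115 CPM (n = 3) against 99.8 ± 11.1 CPM (n = 4) in Treg libraries (adjusted p = 0.037). IER5L in CD8 cells was at 566 ± 202 CPM against 21.5 ± 4.68 CPM (log2 difference 4.12, SE 0.44, adjusted p = 3.62e-05). JUNB was called in granulocytes, CD4 cells and CD8 cells, with log2 differences of 1.87, 2.33 and 2.07. GADD45A was called in CD4 cells alone (61.3 ± 38.7 against 13.9 ± 5.4 CPM, log2 difference 1.38, adjusted p = 0.0497), a call that was lost in 10 of the 15 fits that left out a library. GADD45A too had passed the filter there through its core libraries alone. With limma, edgeR or DESeq2 no heat shock member was called against normal marrow in any population, and 2 had an unadjusted p under 0.05 with limma, both in CD8 cells. Their medians were 0.18 in granulocytes, 0.41 in CD4 cells, 0.49 in CD8 cells and -0.27 in Treg libraries. Without core CD4 replicate 2 the CD4 count fell from 11 to 1, and without core CD8 replicate 1 the CD8 count fell from 6 to 1.

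Early and peripheral marrow were also compared with normal marrow, and the share of members called is to be read against that of all genes. In granulocytes 3 members were called between early and normal marrow, where 4.78% of all genes were called in either direction, and 3 between peripheral and normal marrow (8.14%). FOS fell in early granulocytes from 541, 410, 567 and 698 CPM to 210, 240, 220 and 181 CPM (log2 difference -1.28, SE 0.27, adjusted p = 0.0102). RHOB was at 48.4, 67.8, 107 and 76.5 CPM in early and 152, 125, 198 and 237 CPM in normal granulocytes (log2 difference -1.12, SE 0.24, adjusted p = 0.0105). ZFP36L1, which limits myeloid and lymphoid proliferation by RNA decay, rose from 22.5, 27.8, 8.23 and 10.5 CPM to 51.3, 126, 45.6 and 130 CPM (log2 difference 1.90, SE 0.42, adjusted p = 0.0134). The groups did not overlap for these 3 genes. In peripheral granulocytes JUN rose (51.3 to 226 CPM against 12.8 to 32.9 CPM, log2 difference 1.37, SE 0.40, adjusted p = 0.0476), and BTG2 and RHOB fell (log2 differences -0.93 and -0.96, adjusted p = 0.0212 and 0.0196) with overlapping libraries. The JUN call was lost in 11 of 15 fits that left out a library. The member medians were -0.16 (all genes 0.00) and -0.38 (-0.01).

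In CD8 cells ATF3 and DUSP2 fell in early marrow, where 3.52% of genes were called lower. The T cell markers fell there too, to 1296 to 2293 CPM in sum from 3342 to 3909 CPM. CD2, CD3D, CD3G and LCK were called lower among them. Neutrophil markers summed to 15480 to 102391 CPM in early and 3168 to 17791 CPM in normal CD8 cells. The part of these shifts in the members' differences was not tested. ATF3 was at 19.2, 181, 41.8 and 160 CPM in normal and 27.7, 0, 11.4 and 0 CPM in early CD8 cells (log2 difference -2.16, SE 0.52, adjusted p = 0.0239). The values overlapped, the 2 highest normal libraries are the ones with lung transcripts, and without those libraries neither gene was called. DUSP2 was at 156 ± 56.4 CPM in early against 272 ± 52 CPM in normal CD8 cells (n = 4 each; log2 difference -0.96, SE 0.27, adjusted p = 0.0493), a call lost in 10 of 12 fits that left out a library and under all 8 other settings. In the Treg libraries PLK3 and RHOB fell in peripheral marrow, where 2.25% of genes were called lower. B and plasma cell markers summed to 521 to 868 CPM there and 2163 to 2998 CPM in normal Treg libraries. Erythroid markers were at 0 to 36.8 against 77.1 to 138 CPM, and macrophage markers at 5275 to 20500 against 25124 to 28289 CPM. Their part was not tested either. PLK3 went from 74.7, 74.4, 56.1 and 68 CPM in normal to 4.6, 0 and 16.1 CPM in peripheral libraries (log2 difference -2.04, SE 0.34, adjusted p = 0.00468), with early libraries between them at 35.8, 37.7 and 22.5 CPM. RHOB went from 170 ± 47.8 CPM (n = 4) to 58.7 ± 37.2 CPM (n = 3; log2 difference -1.38, SE 0.35, adjusted p = 0.0429), without overlap. That call was lost in 8 of 13 fits that left out a library and under all 8 other settings, and the PLK3 call without the lung libraries.

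With limma, no member was called in the other 4 comparisons with normal marrow. These are early CD4 cells (0% of genes called; 4 members at an unadjusted p under 0.05), peripheral CD4 cells (0%; 2 members), peripheral CD8 cells (0%; 5 members) and early Treg libraries (0.167%; 3 members). With edgeR and with DESeq2 on the recovered reads the counts were also 0. The member medians were below 0 in every comparison of early or peripheral with normal marrow, from -0.16 in early granulocytes to -0.86 in peripheral Treg libraries, where the median of all genes was -0.12. Normal marrow held lung transcripts in 10 of its 16 libraries, and early and peripheral marrow in 7 of 28.

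Populations were compared in normal marrow on log2 of CPM plus 10, in 1 fit of the 55 libraries. Between granulocytes and CD4 cells 50.5% of all genes were called, and the median of all genes lay at -0.64, so differences are read against that shift. The members divided by gene, 11 higher and 12 lower in granulocytes, with a median of -0.83. GADD45A was at 185, 250, 312 and 419 CPM in granulocytes and 8.31 to 19.9 CPM in CD4 cells (log2 difference 3.63, SE 0.39, adjusted p = 6.83e-12). IER2, at 937 CPM on average against 240 CPM (log2 difference 1.98, adjusted p = 5.99e-08), KLF6 (2.06), FOSL2 (1.81), DUSP1 (1.71), ZFP36 (1.49), GADD45G (1.48), RHOB (1.24), JUNB (1.09), SGK1 (1.07) and MCL1 (0.94) were also higher. DUSP2, at 6.4 to 10.8 CPM in granulocytes and 135 to 378 CPM in CD4 cells, was lower (log2 difference -3.53, SE 0.37, adjusted p = 4.67e-12).

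HSPE1 was lower too, at 1.83 to 13 CPM against 150 to 213 CPM (log2 difference -3.60, SE 0.32, adjusted p = 8.46e-15), as was HSP90AB1 (-1.98, adjusted p = 9.09e-12), and with them DNAJB1 and HSPH1. ZFP36L1 (-2.40), PPP1R15A (-2.25), FOSB, JUN, IER5L, JUND and GADD45B completed the lower genes. The split was 15 higher and 8 lower with edgeR and TMM scaling and 14 and 6 on the deposited scaling. CD8 cells differed from CD4 cells in 0 members with limma and with edgeR (2.74% of genes called; 2 members at an unadjusted p under 0.05). The Treg libraries exceeded CD4 cells in DUSP4 and PLK3 (11.5% of genes called; log2 differences 1.06 and 1.29, adjusted p = 0.0248 and 0.0274), and neither was called without the lung libraries.

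The effects of site were then compared between populations in the same fit. The difference of the core minus peripheral effect from that in CD4 cells was called for 0 members in CD8 cells (0.0415% of genes; 3 members at an unadjusted p under 0.05), granulocytes (0.0138%; 10 members) and Treg libraries (0%; 1 member). The difference of the peripheral minus normal effect was called for 0 members in CD8 cells (0%; 0 members), granulocytes (0.194%; 4 members) and Treg libraries (1.05%; 2 members). With edgeR, DUSP2 passed in granulocytes for the first effect and ZFP36L1 for the second. A gene called in 1 population and not in another is therefore not shown to differ between them.

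The members were last set against the lung transcripts, in a comparison chosen after the values were seen. Over the 55 libraries, with the 16 groups as terms, 19 members were higher and 1 lower where lung transcripts were present, of 41 tested, while 6.39% of all genes were higher; the member median was 0.47 and that of all genes 0.05. The largest log2 differences were those of HSPA1A (3.02, SE 0.23, adjusted p = 4.19e-14), HSPA1B (2.63), FOSB (2.50), ATF3 (2.38), EGR1 (2.33) and BAG3 (1.86). The others called higher were DUSP1, EGR2, FOS, GADD45B, GADD45G, IER3, IER5L, JUN, JUNB, KLF4, PPP1R15A, ZFP36 and DNAJB1, and GADD45A was lower (-0.52, adjusted p = 0.032). The summed level of HSPA1A and HSPA1B in non-core granulocytes was 10.8 to 22.7 CPM in the 7 libraries without lung transcripts and 225 to 300 CPM in the 5 with them. In non-core CD4 cells it was 46.8 to 320 CPM and 590 to 1080 CPM, and in non-core CD8 cells 36.8 to 173 CPM and 895 to 1016 CPM, again without overlap. FOSB in non-core granulocytes was 0.827 to 7.99 CPM without and 67.8 to 100 CPM with lung transcripts.

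Members that followed the lung transcripts were also counted within each population, and the difference between populations was not tested. Among the CD8 groups only normal marrow held libraries of both kinds, 2 of its 4 with lung transcripts. The CD8 lung term therefore rests on those libraries alone. Within Treg libraries 18 members were higher (4.09% of genes), within CD4 cells 13 (3.57%), within CD8 cells 6 (1.72%) and within granulocytes 5 (3.26%), where ZFP36L2 and GADD45A were lower. In granulocytes the 5 were HSPA1A (3.18), HSPA1B (2.82), FOSB (2.74), ATF3 (2.15) and BAG3 (1.42), while FOS, JUNB and DUSP1 had log2 differences of -0.28, -0.32 and -0.31 (adjusted p = 0.498, 0.497 and 0.417). In the same fit the core minus peripheral differences of FOS, JUNB, DUSP1 and BTG2 in granulocytes were 2.35, 1.83, 1.35 and 2.55 (adjusted p = 5.67e-05, 0.0043, 0.00975 and 1.6e-06). Those of HSPA1A, HSPA1B and BAG3 were 0.95, 0.68 and 0.14 (adjusted p = 0.1, 0.389 and 0.916). ATF3 was called for the core there too (1.54, adjusted p = 0.00246), and FOSB was not (1.37, adjusted p = 0.0831). Leaving out the lung libraries kept a single core granulocyte library. The differences were then 1.55 for HSPA1A, 0.96 for HSPA1B, 0.04 for BAG3, 2.00 for ATF3 and 2.21 for FOSB. With the lung term HSPA1A was called in CD4 cells (1.75, adjusted p = 0.0324), but not in CD8 cells or Treg libraries. The part of tissue handling in either pattern was not tested.

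**Figure D3:**
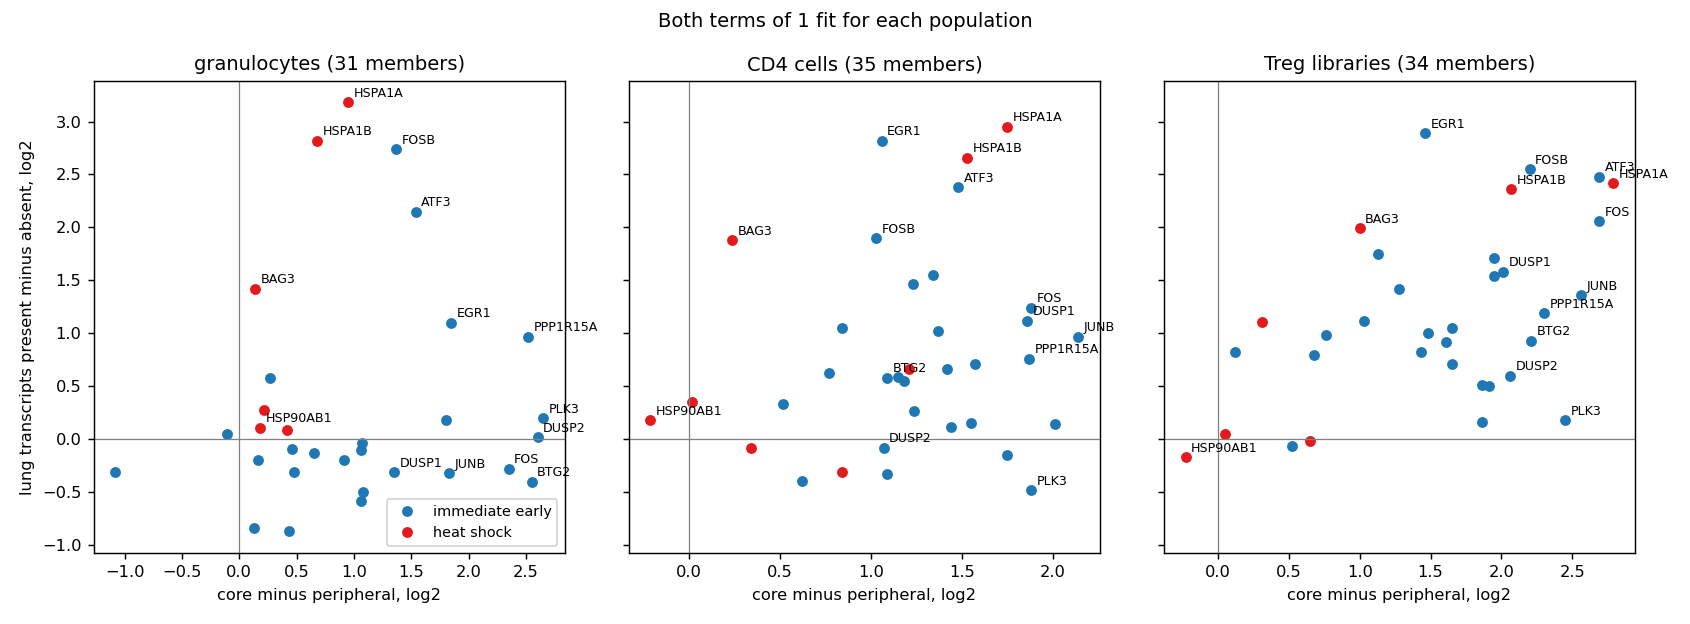
Each point is 1 member: the core minus peripheral log2 difference (x axis) against the log2 difference between libraries with and without lung transcripts (y axis), both terms of 1 fit per population, for 31 members in granulocytes, 35 in CD4 cells and 34 in Treg libraries. In granulocytes HSPA1A, HSPA1B and FOSB lie high on the y axis, while BTG2, PPP1R15A and FOS lie far along the x axis.

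Other genes of these pathways were counted from lists of regulators, of chaperones and of genes reported to rise on tissue dissociation. Of the listed partners and regulators of the immediate early response, 15 to 20 were tested per population between core and peripheral marrow. FOSL1, a FOS relative, rose in granulocytes (106 ± 40.2 against 1.25 ± 0.284 CPM, log2 difference 3.59, adjusted p = 1.56e-06). The nuclear receptor NR4A3 and the cyclic AMP factor CREM rose in CD4 cells, and NR4A2 and NR4A3 in CD8 cells. In these populations FOSL1, CREM and NR4A2 stayed below the filter in peripheral and normal marrow, with means of at most 5.12 CPM. Those libraries did not open their tests, so these calls are not read as support. In the Treg libraries 0 of 16 were called with limma, edgeR or DESeq2, and 4 had an unadjusted p under 0.05 with limma. Of the chaperones and co-chaperones that are not members, 21 to 30 were tested and 0 were called between the sites in any population with limma, edgeR or DESeq2 (0 to 3 at an unadjusted p under 0.05 with limma), with medians of -0.03, -0.09, 0.24 and -0.17 in granulocytes, CD4 cells, CD8 cells and Treg libraries.

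Genes reported to rise on dissociation, members left out, were called higher in the core in 9 of 46 cases in granulocytes (1.55% of all genes). The counts were 9 of 52 in CD4 cells (1.59%), 5 of 57 in CD8 cells (1.14%) and 6 of 59 in Treg libraries (1.08%), and none was lower. Their medians were 0.56, 0.68, 0.59 and 0.75. Over the 55 libraries, genes of this list were also called higher with lung transcripts, and none was called lower. Among them were CXCL1 (log2 difference 2.95), NR4A1 (2.54), ID3 (1.89) and LMNA (1.53). CXCL1, PHLDA1 and TUBB6 were called both there and in core CD8 cells, where site and lung transcripts cannot be told apart. BHLHE40, a clock-related repressor, and CSRNP1, a nuclear protein of the immediate early class, were called in all 4 populations. TNFAIP3, the A20 brake on NF-kappaB, was at 410 ± 182 CPM in core and 52.3 ± 25.9 CPM in peripheral CD4 cells (log2 difference 2.74, adjusted p = 0.00595).

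The 7 members that passed the filter in no population had few reads. EGR2, a relative of EGR1, had 62 to 76 reads per population and a highest value of 59.5 CPM, and EGR3 had 2 to 36 reads and at most 25.2 CPM. HSP90AA1, the inducible HSP90, had 33 to 82 reads and at most 49.9 CPM. BTG1, a relative of BTG2, had 31 to 65 reads and at most 69.4 CPM. IER5, an activator of HSF1, had 2 to 23 reads and at most 23.1 CPM, DUSP5, a nuclear ERK phosphatase, had 3 to 16 and at most 28.3 CPM, and DNAJA1, an HSP40, had 0 to 4 and at most 6.23 CPM. EGR3 in core granulocytes was at 7.13, 15.1 and 25.2 CPM against 0 to 2.15 CPM in every other granulocyte library, with no test. No stage or site comparison within a population was made for these 7.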

How the data were processed

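The authors sequenced 55 MARS-seq libraries and deposited 1 table per library of gene signal, read counts normalised by dividing by a size factor, per the submitters' processing notes (DESeq2) and the values themselves. The submitters' processing notes name fastp 0.20.0, STAR 2.6.0c, DESeq2 1.30.1 and GRCm38; the sources used here do not say how reads or molecular identifiers became counts. Symbols are upper case and paired with human-style Ensembl identifiers, and the step that converted them from mouse is not given. Promoters were matched by mouse symbol. In every library 100% of values were whole multiples of 1 step within 0.01, so whole reads were recovered. The 5 unnamed features, at most 0.0124% of reads, were left out.

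Groups came from titles and tissue labels. For each population, limma 3.58.1 (R 4.3.3) was fitted to log2 of the deposited value plus 4 with its 4 groups. A gene entered if at least n libraries had a value of 10 or more, n being the size of the smallest group. P-values were Benjamini-Hochberg adjusted over all genes, at 0.05. Populations were compared in 1 fit of log2 of CPM plus 10 over 16 groups, for genes at 20 CPM or more in 4 libraries. The same fit tested differences of effects. Alternatives were edgeR 4.0.16 and DESeq2 1.42.0 on the reads, other pseudocounts, no filter, a replicate block, each library left out, and the lung libraries left out or marked by a covariate. Lung libraries were those whose 6 lung markers summed to 200 or more on the deposited scale. edgeR with TMM called 60 genes higher and 2 lower in core than in peripheral granulocytes, 77 and 18 in CD4 cells, 113 and 49 in CD8 cells and 33 and 13 in Treg libraries.

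The design text places core and peripheral marrow in the same mouse. Numbers shared by the deposited tables of both sites were taken as the animal. Their deviations correlated at -0.34, 0.51 and 0.19 in granulocytes, 0.28, 0.22 and 0.29 in CD4 cells, 0.11 and 0.11 in CD8 cells and 0.07, 0.15 and 0.24 in Treg libraries. No 2 libraries of a group agreed within sampling noise. The fits were tested on simulated data. Floors of 3 reads cover counting error only.

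The 45 members and the lists were chosen with earlier results of these data known, and the lung comparison after the values were seen. The lists held 31 regulators (30 in the tables), 40 other chaperones (39) and 83 genes reported to rise on dissociation (78), besides markers of T cells, neutrophils, macrophages, B cells, erythroid cells, lung and tumour epithelium. Values are given for each member called between stages, for 23 preset members whatever their p, for members not tested, and for at most 4 called genes of a list per comparison.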

Additional observations from a re-analysis of the deposited data

Results flagged for a closer look

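In groups of 4 libraries, 31 of 296 tests found a member's highest or lowest CPM far from the other 3 libraries; chance flags about 1 in 20. Of the 31, 22 were in libraries with lung transcripts.

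Early CD4 replicate 4, with lung transcripts, was highest for the members named next. It held ATF3 at 231 CPM (0 to 14.8 in the others), EGR1 at 621 (7.4 to 29.3), FOS at 530 (106 to 146), FOSB at 333 (0 to 51.8), HSPA1A at 541 and HSPA1B at 538 (29 to 44.4 for each), IER3 at 137 (0 to 9.67), JUNB at 1336 (244 to 358) and ZFP36 at 527 (117 to 145), and DNAJA1 at 2.85 CPM against 0. Peripheral CD4 replicate 1, with lung transcripts, held EGR1 at 273 CPM (17.1 to 59.7) and IER3 at 78.3 CPM (12.6 to 22.4). Peripheral granulocyte replicate 1, with lung transcripts, held ATF3 at 40.9 CPM (3.69 to 5.15), FOSB at 67.8 (0.827 to 7.99), HSPA1A at 132 (4.92 to 10.3) and HSPA1B at 119 (4.96 to 11.3), and the lowest MCL1, at 230 CPM (292 to 301).

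Normal Treg replicate 3, the normal Treg library without lung transcripts, was lowest for FOSB at 31.5 CPM (378 to 428), JUN at 24.5 (200 to 228) and MCL1 at 105 (234 to 259), and held DNAJA1 at 3.51 CPM against 0. Normal Treg replicate 4 was lowest for DUSP2, at 83.2 CPM (105 to 106). Normal CD4 replicate 2 was lowest for FOS, at 101 CPM (332 to 353), normal CD4 replicate 4 held DUSP4 at 6.62 CPM against 0, and early CD4 replicate 2 was lowest for PLK3, at 22.2 CPM (28.5 to 29.3). Early CD8 replicate 4 was highest for GADD45B, at 463 CPM (249 to 271).

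Among the granulocytes, peripheral replicate 3 was highest for JUN, at 226 CPM (51.3 to 68.8). Early replicate 3 was lowest for HSPA8, at 68.4 CPM (169 to 176), and early replicate 1 highest for HSPH1, at 7.9 CPM (0.612 to 1.63). Early replicate 2 held DNAJA1 at 0.64 CPM and normal replicate 2 HSP90AA1 at 1.55 CPM, each against 0 in the others. Values near 1 read, as for DNAJA1 and HSP90AA1, carry little weight.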

How the results depend on the processing

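Counts of members called moved by more than 1.5 times under some settings, and except where stated the cause was not tested. The share of all genes called is not given beside these counts. Without the filter on low values the count against normal marrow was 0 in peripheral granulocytes (3 with it), 0 in early CD8 cells (2) and 1 in peripheral Treg libraries (2). With log2 of the value plus 1, core CD4 cells against normal fell from 11 to 6, core CD8 cells against peripheral from 9 to 5, core Treg libraries against normal from 3 to 1, and early CD8 cells and peripheral Treg libraries against normal from 2 to 1. DESeq2 called 5 members in early and 5 in peripheral granulocytes (3 each), 16 between CD8 sites (9), 11 between Treg sites (6) and 1 in peripheral Treg libraries. edgeR with TMM or RLE factors called 5 in peripheral granulocytes, 0 in early CD8 cells and 1 in peripheral Treg libraries, and with TMM 4 between Treg libraries and CD4 cells of normal marrow (2) and 1 for both differences of effects in granulocytes (0). That normal Treg count was 1 with log2 of CPM plus 2, 5 on the deposited scaling, 5 with the lung covariate and 0 without the lung libraries. With the lung covariate the counts were 5 in early and 6 in peripheral granulocytes, 0 in early CD8 cells, 2 in core CD8 cells against either group, 1 in peripheral Treg libraries, 17 between Treg sites and 13 in core Treg libraries against normal. Without the lung libraries, which leaves fewer samples, they were 17 between granulocyte sites (8), 5 in peripheral granulocytes, 0 in core CD4 cells against either group, 0 in early CD8 cells, 0 in peripheral Treg libraries, 10 between Treg sites and 15 between normal granulocytes and CD4 cells (23); no core CD8 library remained. The count that followed lung transcripts, 20 over all libraries, was 13 within CD4 cells, 6 within CD8 cells and 7 within granulocytes.

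With a replicate block, between the sites the counts were 9 in granulocytes, 15 in CD4 cells, 25 in CD8 cells and 9 in Treg libraries. For the other comparisons the numbers only name samples; there the block gave 5 in early, 9 in peripheral and 12 in core granulocytes, 0, 0 and 8 in CD4 cells, 3, 0 and 8 in CD8 cells, and 7, 1 and 7 in Treg libraries.

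Leaving out each library in turn, the counts between the sites ranged from 5 to 10 in granulocytes, 1 to 17 in CD4 cells, 0 to 12 in CD8 cells and 2 to 10 in Treg libraries. Core against normal ranged from 11 to 14, 1 to 11, 1 to 7 and 0 to 4, peripheral against normal from 0 to 5, 0 to 0, 0 to 0 and 1 to 5, and early against normal from 2 to 4, 0 to 0, 0 to 4 and 0 to 0, in the same order. Of the fold changes of single members, 11556 kept their direction and side of the threshold, 376 lost the call, 237 gained it and 6 changed sign. The 6 were BTG2 between normal granulocytes and CD4 cells (0.82 with edgeR and TMM), and the lung difference within granulocytes of DUSP1 (-0.31), FOS (-0.28), IER3 (-0.04), JUNB (-0.32) and ZFP36 (-0.58). Depth limits the members with few reads, since 1 read was worth up to 23.1 CPM in CD8 cells.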
